A study of Mus musculus with 8 samples.

Results

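The SLC25 family was examined in adult oligodendrocyte progenitors and oligodendrocytes of the mouse brain. Its members were taken as every gene whose symbol is Slc25a followed by a number, in the tables of RNA levels or in the gene columns of the tables of DNA hydroxymethylation. The rule found 46 genes of 20871 named in these tables. Of these, 38 had an RNA level, and Slc25a21, Slc25a24, Slc25a31, Slc25a34, Slc25a41, Slc25a43, Slc25a48 and Slc25a54 were not listed among the 11315 genes of the RNA tables. All 46 had CpG sites in the hydroxymethylation tables, 1587 of 1497075 sites in all. The rule used names only, and no measured value.

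SLC25 proteins are the carriers of the inner mitochondrial membrane. They exchange ADP for ATP, take up phosphate, and pass citrate, malate, aspartate, glutamate, carnitine esters, cofactors, nucleotides and iron between matrix and cytosol, and a few members work in peroxisomes or in the outer membrane. Oligodendrocytes make large amounts of lipid for myelin, for which citrate leaving the mitochondrion is a source of cytosolic acetyl-CoA, while ATP exchange and the malate-aspartate shuttle tie glycolysis to respiration.

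The samples came from brains of 60-day-old mice of the C57BL/6 strain. Adult progenitors (aOPC) were sorted by fluorescence from Pdgfra-H2BEGFP reporter mice, and adult oligodendrocytes (aOL) from Plp-EGFP reporter mice, so that the reporter line and the cell population cannot be told apart. In the RNA series, aOL are named pre-myelinating in the titles but myelinating in the protocol. The aOL hydroxymethylation samples carry a tissue label that names the progenitor reporter, and were grouped by their titles. Each population had 2 RNA libraries and 2 libraries of reduced representation hydroxymethylation profiling (RRHP), numbered 2 and 3, with DNA and RNA taken from the same pellet. RRHP reads 5-hydroxymethylcytosine (5hmC) at the motif CCGG: once glucosylated, 5hmC keeps MspI from cutting there, and the number of reads at the site stands for its 5hmC level. The labels do not say whether replicates came from separate animals or pools, so that p-values measure the spread between these libraries only, and an exact permutation test of 2 libraries against 2 cannot go below p = 0.333.

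RRHP reads summed over the listed CpG sites came to 7113237 and 17121440 for aOPC, against 15923775 and 27057859 for aOL, replicates 2 and 3 in that order, and CPM below are counts scaled to these sums and not to all reads sequenced. CpG islands took 5.74% of these reads of aOPC replicate 2 and 2.38% to 3.32% in the other libraries. No cell type marker was called between the RNA groups (limma). All 11 progenitor markers were listed, 7 of them lower in aOL by sign with a median difference of -0.81 (log2), with a summed level of 13.2 to 14.8 (log2) in aOPC and 14.3 to 14.4 in aOL. Pdgfra itself had log2 levels of 7.54 and 5.47 in aOPC, against 4.98 and 1.63 in aOL. Cspg4, another progenitor marker, overlapped, at 8.05 and 6.79 in aOPC, against 6.39 and 6.83 in aOL. All 12 oligodendrocyte markers were listed, with 0 called, 5 higher and 6 lower in aOL by sign, and a median difference of -0.03. Their summed level was 22.5 to 22.7 in aOPC and 22.6 to 22.7 in aOL. Mog was lower in aOL, at 17.59 and 17.76 in aOPC, against 16.89 and 17.16 in aOL. Of the other lists, 8 of 8 astrocyte markers summed to 14.02 to 14.90 in aOPC and 13.98 to 14.20 in aOL, 10 of 11 microglial markers to 11.9 to 12.6 and 11.7 to 12.1, 6 of 8 neuronal markers to 12.1 to 12.5 and 11.7 to 11.8, 2 of 8 endothelial markers to 9.07 to 9.37 and 9.83 to 10.2, and 2 of 5 mural markers to 5.19 to 7.45 and 6.61 to 9.80, with 0 markers at 0 in each list. The neuronal and endothelial sums did not overlap between the groups, nor did Pdgfra or Mog, while the other sums overlapped. By sign, 6 of 8 tested astrocyte markers, 7 of 10 microglial and 4 of 4 neuronal ones were lower in aOL. Both endothelial and both mural markers were higher, with median differences of 3.08 and 1.57. Cldn5, an endothelial marker, was at 0.33 and 1.80 in aOPC, against 5.92 and 7.13 in aOL. The part of these markers in the differences below was not tested.

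RNA levels were compared to ask which carriers differ between progenitors and oligodendrocytes. None of the 38 measured members passed the test (limma, p under 0.01 and Benjamini-Hochberg adjusted p under 0.05), and the smallest adjusted p of a member was 0.191. Over all 11133 genes tested, 0.0808% were called, 9 genes in all. By sign, 19 members were higher and 19 lower in aOL, with a median difference of -0.0033 (log2, aOL minus aOPC) against 0.02 over all genes. At an unadjusted p under 0.05, 1 member was higher, or 2.63% against a background of 12.1%, and 1 was lower, or 2.63% against 12%. Both aOL libraries lay above both aOPC libraries for 7 members, or 18.4% against 31.9% of all genes, and below them for 11 members, or 28.9% against 29.9%. All levels below are the deposited log2 values, and fold changes are on that scale. In sorted populations a lower level can mean fewer cells of a type or less RNA per cell, and these cannot be told apart.

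**Figure D1:**
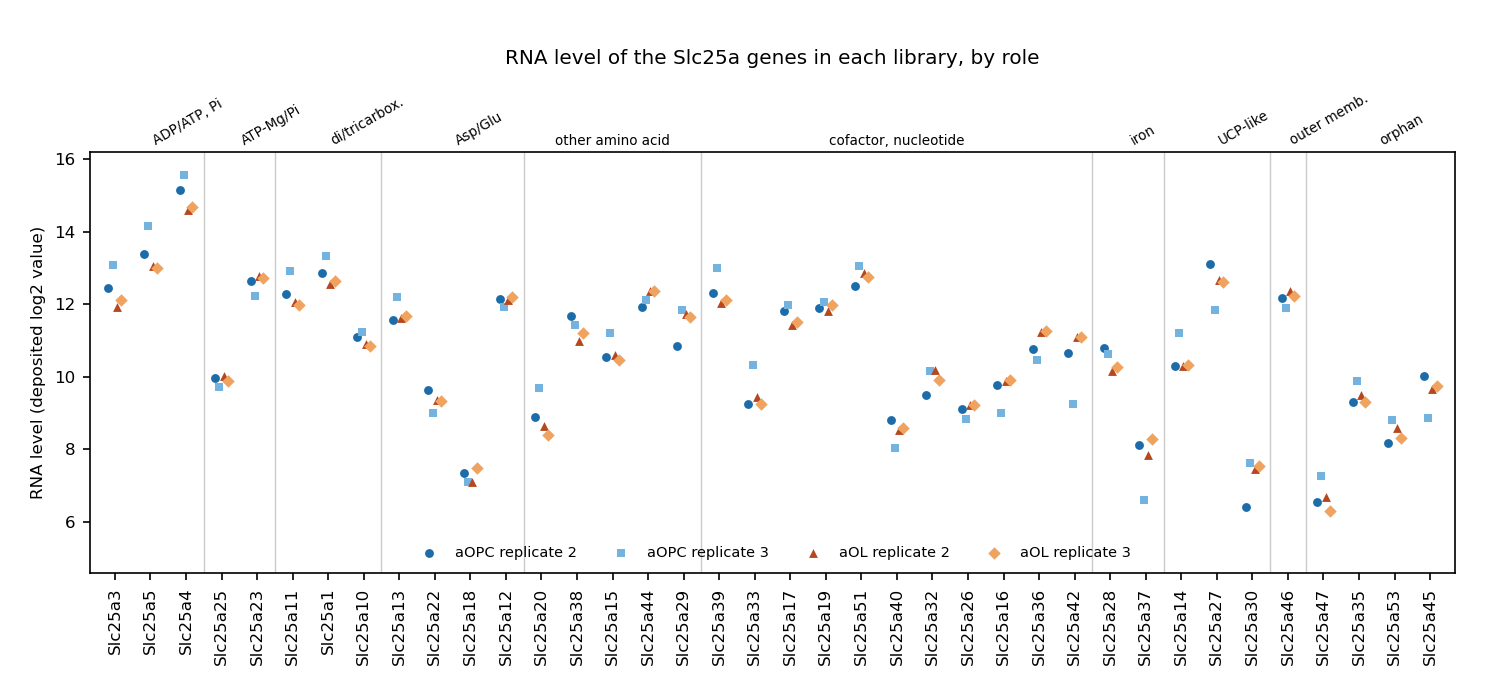
RNA level (deposited log2 value, vertical axis) of the 38 measured Slc25a genes in each of the 4 libraries, grouped by what the carrier transports and ordered in each group by the difference between populations. The squares of aOPC replicate 3 often stand apart from the circles of aOPC replicate 2, while the triangles and diamonds of the aOL libraries lie close together.

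The carriers of ADP, ATP and phosphate had negative differences, and the 2 ADP/ATP exchangers among them had the most RNA of all members. Slc25a4 encodes Ant1, the ADP/ATP exchanger of heart, muscle and brain (chr8:46207168-46211062, minus strand, GRCm38). Its level was 15.13 and 15.55 in aOPC, against 14.59 and 14.68 in aOL, a difference of -0.71 ± 0.24 (SE, n = 2 libraries per population, limma, unadjusted p = 0.0385, adjusted p = 0.191). The groups did not overlap, and the difference equals a fold of 0.613. Slc25a5, the X-linked gene of the ADP/ATP exchanger Ant2, was at 13.38 and 14.16 in aOPC and at 13.06 and 12.998 in aOL, a difference of -0.74 ± 0.33 (SE, adjusted p = 0.262). The 2 aOPC libraries differed from each other by as much as the populations did. Processed copies of Slc25a5 exist in the genome, so that its value is uncertain wherever reads could have been shared with them. Slc25a3, the phosphate carrier, was at 12.46 and 13.08 in aOPC and at 11.92 and 12.13 in aOL, a difference of -0.75 ± 0.29 (SE, adjusted p = 0.225). All 3 measured members of this group had both aOL libraries below both aOPC libraries, as had 28.9% of all members and 29.9% of all genes, and none was called.

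The carriers of di- and tricarboxylates showed the same order of libraries, as did 29.9% of all genes. Slc25a1, which exports citrate for fatty acid and sterol synthesis, was at 12.87 and 13.33 in aOPC and at 12.55 and 12.63 in aOL (difference -0.51 ± 0.25, adjusted p = 0.284). Slc25a11, the 2-oxoglutarate and malate carrier of the malate-aspartate shuttle, was at 12.29 and 12.93 in aOPC and at 12.07 and 11.99 in aOL (difference -0.58 ± 0.29, adjusted p = 0.299). An overlap with exons of Rnf167 covers 8.92% of the exon length of Slc25a11. Slc25a10, the dicarboxylate carrier, had a difference of -0.30. All 3 measured members of the group were lower in aOL by sign, and none was called.

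The aspartate and glutamate carriers differed little. Slc25a12, or Aralar1, which completes the malate-aspartate shuttle in neurons and muscle, was at 12.15 and 11.92 in aOPC and at 12.13 and 12.20 in aOL (difference 0.13 ± 0.20, adjusted p = 0.71). Slc25a13, or Citrin, its liver counterpart, was at 11.56 and 12.19 in aOPC and at 11.61 and 11.67 in aOL (difference -0.24 ± 0.29, adjusted p = 0.632). In both genes the aOPC libraries spanned or overlapped the aOL libraries. The glutamate carrier Slc25a18 was at 7.36 and 7.09 in aOPC and at 7.10 and 7.49 in aOL, the lowest level among the aspartate and glutamate carriers. The 4 members of the group had differences between -0.24 and 0.13.

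Of the carriers of cofactors and nucleotides, 7 of 11 were higher in aOL by sign. Slc25a36, which carries pyrimidine nucleotides into mitochondria, was at 10.77 and 10.47 in aOPC and at 11.23 and 11.25 in aOL. Its difference of 0.62 ± 0.21 (SE, n = 2, limma, unadjusted p = 0.0409, adjusted p = 0.194) was the member difference upwards with the smallest p. Slc25a42, which brings coenzyme A into the matrix, had the largest difference of all members, 1.15 ± 0.52 (adjusted p = 0.264). It rested on 10.65 and 9.25 in aOPC against 11.10 and 11.10 in aOL, so that the aOPC libraries differed from each other by more than the populations did. Slc25a16, also linked to coenzyme A, was at 9.78 and 9.01 in aOPC and at 9.87 and 9.91 in aOL (difference 0.50 ± 0.32, adjusted p = 0.393). In the opposite direction, Slc25a17, the peroxisomal carrier of coenzyme A, FAD and NAD, was at 11.82 and 11.97 in aOPC and at 11.43 and 11.51 in aOL (difference -0.42 ± 0.19, adjusted p = 0.267). Slc25a39, a carrier of glutathione, was at 12.30 and 12.99 in aOPC and at 12.03 and 12.10 in aOL (difference -0.58 ± 0.30, adjusted p = 0.315). Slc25a51, the mitochondrial NAD carrier, was at 12.51 and 13.06 in aOPC and at 12.86 and 12.75 in aOL, with a difference of 0.02 ± 0.27.

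The other amino acid and acylcarnitine carriers went both ways. Slc25a20, which brings long-chain acylcarnitines to beta-oxidation, was at 8.89 and 9.70 in aOPC and at 8.65 and 8.40 in aOL (difference -0.77 ± 0.35, adjusted p = 0.266). Slc25a38, the glycine carrier that feeds heme synthesis, was at 11.67 and 11.43 in aOPC and at 10.99 and 11.21 in aOL (difference -0.45 ± 0.22, adjusted p = 0.28). Slc25a44, which carries branched-chain amino acids, was at 11.91 and 12.12 in aOPC and at 12.36 and 12.36 in aOL (difference 0.34 ± 0.20, adjusted p = 0.348). These 3 genes had groups that did not overlap, Slc25a20 and Slc25a38 lower, as had 29.9% of all genes, and Slc25a44 higher, as had 31.9%. Their intervals all included 0. The ornithine carrier Slc25a15 and the basic amino acid carrier Slc25a29 overlapped between groups.

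The 2 mitoferrins, which import iron for heme and iron-sulfur clusters, differed in sign with all libraries. Slc25a28 (mitoferrin 2) was at 10.80 and 10.63 in aOPC and at 10.16 and 10.28 in aOL (difference -0.49 ± 0.20, adjusted p = 0.231). Slc25a37 (mitoferrin 1) was at 8.12 and 6.59 in aOPC and at 7.85 and 8.28 in aOL (difference 0.71 ± 0.58, adjusted p = 0.489). Its aOPC libraries lay 1.53 apart, the widest gap between replicates among the members, and without aOPC replicate 3 its difference was -0.0601. The difference between the responses of the 2 genes was not tested.

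Slc25a23, a calcium-regulated carrier of ATP-Mg and phosphate, was at 12.64 and 12.23 in aOPC and at 12.79 and 12.72 in aOL (difference 0.32 ± 0.23, adjusted p = 0.447). Slc25a46, which lies in the outer membrane and takes part in shaping mitochondria, was at 12.18 and 11.89 in aOPC and at 12.36 and 12.24 in aOL (difference 0.27 ± 0.22, adjusted p = 0.48). Both genes had the aOL libraries above the aOPC libraries, as had 31.9% of all genes, with intervals that included 0. The 3 measured uncoupling-protein-like carriers had differences from -0.44 to 0.47, and the 4 measured members with no well-established substrate from -0.42 to 0.25.

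**Figure D2:**
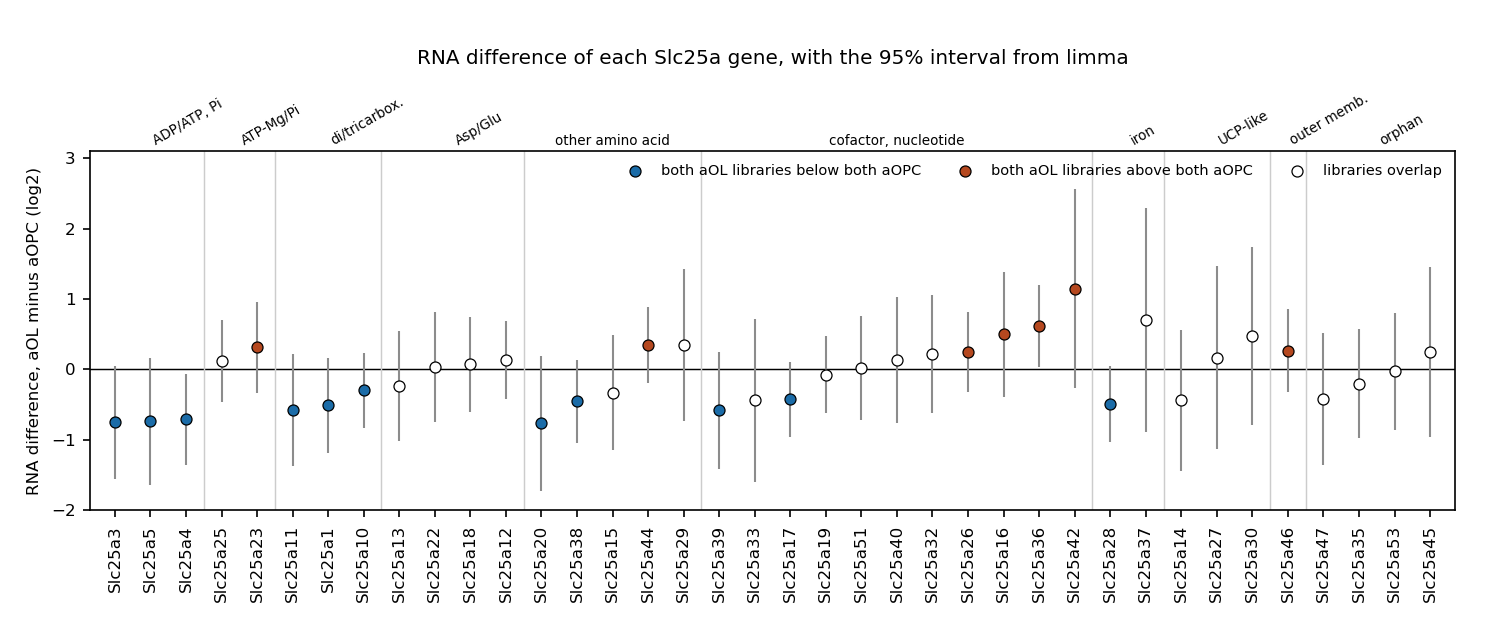
RNA difference between populations (aOL minus aOPC, log2, vertical axis) of the 38 measured Slc25a genes, grouped as in the plot of RNA levels, with the 95% interval of limma as a bar. The filled points mark the 11 genes with both aOL libraries below and the 7 with both above the aOPC libraries, and only the intervals of Slc25a4 and Slc25a36 leave out 0.

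The spread of the members lay mostly in the progenitor libraries. The 2 aOPC libraries differed by a median of 0.632 (log2) over the 38 members and by 0.475 over all genes tested, while the 2 aOL libraries differed by 0.0859 and 0.117. The aOPC gap was the wider in 37 of 38 members, against 83.1% of all genes, and in 11 members both aOL libraries lay inside the aOPC pair, or 28.9% against 22.9%. Of the 19 members lower in aOL by sign, 17 were higher in aOPC replicate 3 than in replicate 2, against 67.5% of all genes lower in aOL. When aOPC replicate 2 was left out, 15 members were called, or 39.5% against 36.3% of all genes, and when aOPC replicate 3 was left out, 2 were, or 5.26% against 21.3%. The difference of 31 of the 38 members moved by over 1.5 times or turned sign without 1 of the aOPC libraries, and that of 9 without 1 of the aOL libraries. Without aOPC replicate 3, Slc25a5 was at -0.35, Slc25a11 at -0.26, Slc25a39 at -0.23, Slc25a20 at -0.36, Slc25a16 at 0.12 and Slc25a23 at 0.11. In these fits the lone aOPC library is assumed to vary like the aOL pair, which is the closer pair. Leaving out aOL replicate 2 or 3 left 0 members called, against 0.905% and 0.896% of all genes.

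Levels were also compared per length. After the log2 of the exon length in kb was subtracted, Slc25a4 stood at 13.76, in percentile 98.9 of the genes tested, followed by Slc25a5 at 12.68, Slc25a1 at 11.73, Slc25a11 at 11.24 and Slc25a39 at 10.89. All 5 had both aOL libraries below both aOPC libraries, as had 29.9% of all genes. Split at the members' median level over all libraries, the 19 more abundant members had a median difference of -0.24, with 11 lower by sign, and the 19 less abundant members had a median of 0.07, with 8 lower. Among all genes above the same level, the median was 0.05 and 47.0% were lower.

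Other genes of mitochondrial transport were taken from a list of 36, of which 32 could be tested and 0 were called (smallest adjusted p 0.133). Of these, 21 were lower and 11 higher in aOL by sign, with a median difference of -0.27. At an unadjusted p under 0.05, 6 were lower, or 18.8%, and 2 were higher, or 6.25%, read against the backgrounds of 12% and 12.1% given above. Both subunits of the pyruvate carrier lay lower in aOL. Mpc2 was at 12.66 and 12.85 in aOPC and at 11.69 and 11.81 in aOL (difference -1.01 ± 0.20, adjusted p = 0.133), and Mpc1 was at 13.97 and 13.91 in aOPC and at 13.10 and 13.19 in aOL (difference -0.79 ± 0.19, adjusted p = 0.145). Smdt1, a small subunit of the calcium uniporter, had a difference of -1.21 ± 0.27 (adjusted p = 0.137), and the pore subunit Mcu had -0.10 ± 0.48.

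RRHP reads were compared to ask where 5hmC in the carrier genes differs between the populations. Of the 1587 member sites, 837 had reads in all 4 libraries, or 52.7%, which is also the share over all sites. Sites read 10 times or more in 2 or more libraries were tested, 489 member sites among 443062 in all. Tested were 7.66% of member sites in promoters, 27.97% in exons and 34.7% in introns, and 3.73% of those in CpG islands. The same shares over all sites were 7.93%, 28.02%, 33.7% and 2.92%. The median log2 fold change (aOL over aOPC, edgeR) was 0.0025 over member sites and -0.01 over all sites tested.

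Reads per gene were set against its number of CCGG sites. Summed over exons and introns, the CPM per CCGG of the reference sequence ran from 0.0908 in Slc25a40 to 2.03 in Slc25a45 in aOPC, with a median of 0.624, and from 0.0512 to 2.42 in the same 2 genes in aOL, with a median of 0.696. Slc25a1, with 23 CCGG in a gene of 3009 bp, had the most reads per length, 6.13 CPM per kb in aOPC and 5.91 in aOL. Slc25a21, a carrier of oxodicarboxylates and the longest member at 484839 bp, had 0.273 and 0.274. Among the members, gene body CPM per CCGG and length-adjusted RNA level had a Spearman correlation of -0.0461 over 38 genes that share these libraries, given as a description. The 3 members with the most tested sites were Slc25a21 with 66, Slc25a13 with 57 and Slc25a12 with 41. Their gene bodies held 907, 865 and 902 reads in aOPC replicate 2 and 3558, 3651 and 3187 in aOL replicate 3, and differed between populations by less than 1 SE.

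Of these sites, 10 in 7 genes passed the test (edgeR quasi-likelihood test, adjusted p under 0.05). Of the 10, 7 were higher in aOL, 1.43% of the member sites tested against 1.21% of all sites, and 3 were lower, 0.613% against 1.08%. Their sequence is shown because the assay reads only this motif and because the sites differ in whether they sit in unique or repeated sequence. Each line gives 60 bases of the plus strand of GRCm38 with CCGG in capitals, and the position is that of the read CpG as the tables give it.
Slc25a38, chr9:120123144, plus, intron, chr9:120123115-120123174: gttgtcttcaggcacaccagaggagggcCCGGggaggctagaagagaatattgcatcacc
Slc25a37, chr14:69255701, plus, intron, chr14:69255672-69255731: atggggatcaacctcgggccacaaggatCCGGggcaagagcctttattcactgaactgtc
Slc25a37, chr14:69267648, plus, intron, chr14:69267619-69267678: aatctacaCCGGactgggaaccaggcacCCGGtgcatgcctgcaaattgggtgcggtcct
Slc25a42, chr8:70210701, plus, intron, chr8:70210672-70210731: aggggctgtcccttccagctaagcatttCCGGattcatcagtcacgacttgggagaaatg
Slc25a42, chr8:70207104, plus, intron, chr8:70207075-70207134: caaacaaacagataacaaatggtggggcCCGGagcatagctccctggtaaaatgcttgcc
Slc25a42, chr8:70206634, minus, intron, chr8:70206604-70206663: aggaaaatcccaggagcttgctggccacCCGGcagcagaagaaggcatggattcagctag
Slc25a51, chr4:45399750, plus, exon, chr4:45399721-45399780: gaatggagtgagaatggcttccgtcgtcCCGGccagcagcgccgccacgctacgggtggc
Slc25a17, chr15:81326637, minus, intron, chr15:81326607-81326666: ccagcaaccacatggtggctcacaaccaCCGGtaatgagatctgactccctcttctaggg
Slc25a21, chr12:57050421, plus, intron, chr12:57050392-57050451: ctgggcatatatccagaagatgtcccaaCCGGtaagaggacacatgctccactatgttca
Slc25a18, chr6:120782276, minus, intron, chr6:120782246-120782305: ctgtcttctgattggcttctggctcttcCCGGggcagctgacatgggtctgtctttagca

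The windows of the Slc25a17 and Slc25a21 sites are wholly within sequence that the reference marks as repeats, and these are the 2 of 10 sites at which the CCGG itself is marked. Of the Slc25a42 window at chr8:70207104, 60% is so marked, and of the Slc25a38 window 38.3%. The remaining windows hold no marked sequence. All but the Slc25a51 site lie in introns, and the Slc25a51 site lies in an exon inside a CpG island. At 5 of the 10 sites, those of Slc25a38, Slc25a17, Slc25a21 and the Slc25a42 sites at chr8:70210701 and chr8:70207104, 1 population had at most 3 reads in each library. Called sites of this kind made up 1.02% of the member sites tested and 1.75% of all sites tested, or 50% and 76.4% of the sites called. Of the 10 sites, 7 reached 10 reads in 1 population only, so that they passed the filter through the population in which they are high, as did 86.0% of all called sites. The other 3, the Slc25a51 site and both Slc25a37 sites, had 10 reads or more in every library and were the 3 member sites called when this was required of all sites.

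Slc25a42, the coenzyme A carrier, had 3 of the 7 sites that were higher in aOL, all in its introns between 1.58 and 5.65 kb from the start of the gene (chr8:70184340-70212281, minus strand). The site at chr8:70206634 had 2 and 7 reads in aOPC, against 71 and 88 in aOL, or 0.281 and 0.409 CPM against 4.46 and 3.25 (log2 fold change 3.28 ± 0.46, adjusted p = 0.00046). The site at chr8:70210701 had 0 and 0 reads in aOPC, against 16 and 26 in aOL (adjusted p = 0.00682). With 3 reads set as the floor of each library, it was at least 3.29-fold higher in aOL. The site at chr8:70207104 had 0 and 0 reads in aOPC, against 13 and 19 in aOL, at least 2.54-fold higher (adjusted p = 0.0198). The groups did not overlap at any of the 3, and the opposite strand of none of them was listed. Between them, the site at chr8:70207485 went the other way, with 5 and 7 reads in aOPC, against 1 and 0 in aOL, too few to be tested. Called sites with at most 3 reads per library in 1 population made up 9.004% of the tested sites in the gene's block of 5 Mb. That was rank 25 of 532 blocks, where the median block had 0.55%. The part of this block in the result was not tested.

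Slc25a51, the NAD carrier (chr4:45395923-45408917, minus strand), had its called site in an exon at chr4:45399750, 9.17 kb from the gene's start. Reads were 21 and 74 in aOPC, against 162 and 422 in aOL, or 2.95 and 4.32 CPM against 10.2 and 15.6 (log2 fold change 1.71 ± 0.31, adjusted p = 0.0056). It was the site with the most reads among those called. Its groups did not overlap, which adds no support because the site was chosen by its p-value. The opposite strand of the same CpG had 0 and 1 reads in aOPC, against 5 and 10 in aOL. Of the 9 tested sites of the gene, 4 were above and 5 below 0 by sign, with a median log2 fold change of -0.0043.

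Slc25a37, mitoferrin 1 (chr14:69241848-69285544, minus strand), had 2 sites that were lower in aOL, both with reads in every library. The site at chr14:69255701 had 44 and 74 reads in aOPC, against 27 and 48 in aOL, or 6.19 and 4.32 CPM against 1.70 and 1.77 (log2 fold change -1.66 ± 0.35, adjusted p = 0.0152). The site at chr14:69267648 had 28 and 50 reads in aOPC, against 16 and 29 in aOL, or 3.94 and 2.92 CPM against 1.005 and 1.07 (log2 fold change -1.77 ± 0.38, adjusted p = 0.0205). Of the 30 tested sites of the gene, 22 were below and 8 above 0 by sign, with a median of -0.45.

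The remaining called sites were the only ones called in their genes. Slc25a38 had 20 and 96 reads in aOPC, against 0 and 0 in aOL at chr9:120123144, at least 28.1-fold higher in aOPC (adjusted p = 1.92e-05). The site at chr9:120123308, too seldom read to be tested, went the same way with 8 and 40 reads in aOPC, against 0 and 0 in aOL. At chr9:120119746 there were 26 reads in aOPC replicate 3 and 0 in the other libraries. The tested site at chr9:120113356 went the other way, with 2 and 6 reads in aOPC, against 23 and 40 in aOL. It was not called (edgeR, 2.07 ± 0.55 in log2, adjusted p = 0.0753). The untested chr9:120119896 also went the other way, with 1 and 3 against 7 and 18. Of the 10 tested sites in the gene body of Slc25a38, 5 were above and 5 below 0 by sign, with a median of 0.04. In its block of 5 Mb, called sites with at most 3 reads per library in 1 population made up 7.11% of those tested, rank 32 of 532. Slc25a17 had 0 and 1 reads in aOPC, against 50 and 66 in aOL at chr15:81326637 (adjusted p = 0.0002). The untested site at chr15:81328218 had 0 and 0 against 8 and 16, and the untested chr15:81328354 went the other way with 0 and 10 against 1 and 5. Of the 7 tested sites of Slc25a17, 5 were above and 2 below 0 by sign, with a median of 0.20. Slc25a21 had 0 and 0 reads in aOPC, against 46 and 59 in aOL at chr12:57050421, at least 8.49-fold higher in aOL (adjusted p = 0.00027), and the opposite strand had 1 read in all. Slc25a18, the glutamate carrier of astrocytes, had 1 and 5 reads in aOPC, against 20 and 43 in aOL at chr6:120782276 (log2 fold change 2.47 ± 0.60, adjusted p = 0.0434). The blocks of Slc25a17, Slc25a21, Slc25a51 and Slc25a37 had 0.426%, 0.163%, 0.447% and 0.0854% of tested sites of this kind, and that of Slc25a18 had 1.26%.

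**Figure D3:**
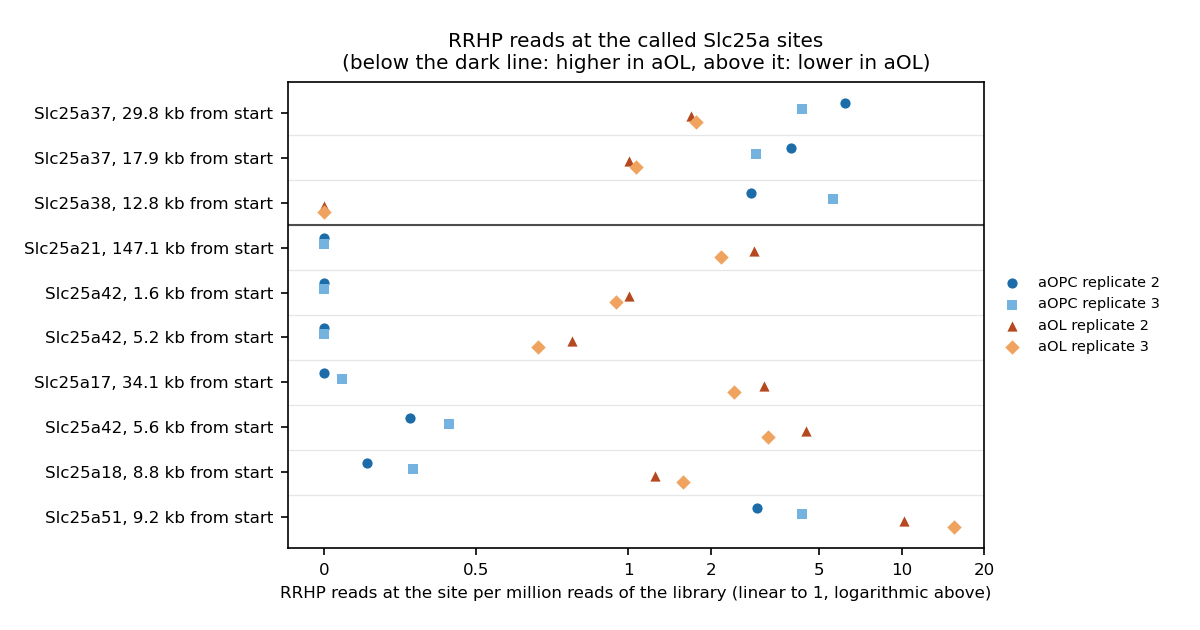
RRHP reads at the 10 called Slc25a sites (CPM, horizontal axis, linear to 1 and logarithmic above) in each library. The 3 sites above the dark line were lower in aOL and the 7 below it higher, and at the sites of Slc25a38 and Slc25a21 and at 2 of the 3 Slc25a42 sites, both libraries of 1 population lie at 0.

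The calls depended on single libraries. Without aOPC replicate 3, 21 member sites were called higher and 17 lower, or 4.69% and 3.79% against 2.73% and 4.02% of all sites. Without aOPC replicate 2, 6 were called higher and 2 lower, or 1.24% and 0.412% against 1.45% and 0.211%. Without aOL replicate 2, 1 was called higher and 1 lower, or 0.223% each against 0.0779% and 1.08%, and without aOL replicate 3, 0 were called higher and 1 lower, or 0.242% against 1.23%. The site of Slc25a38 stayed called without either aOL library and had too few libraries with reads to be tested without either aOPC library. The Slc25a51 site stayed called without aOPC replicate 2, aOPC replicate 3 or aOL replicate 2, and was lost without aOL replicate 3. The Slc25a37 site at chr14:69255701 was lost without either aOL library, and that at chr14:69267648 was lost without aOPC replicate 2 also. The Slc25a18 site was lost without either aOPC library, and the Slc25a42 site at chr8:70207104 without aOPC replicate 3. With DESeq2 the calls of 4 sites were lost, those of Slc25a18 (adjusted p = 0.395), Slc25a37 at chr14:69267648 (0.0724) and Slc25a42 at chr8:70207104 (0.162) and chr8:70210701 (0.0611).

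**Figure D4:**
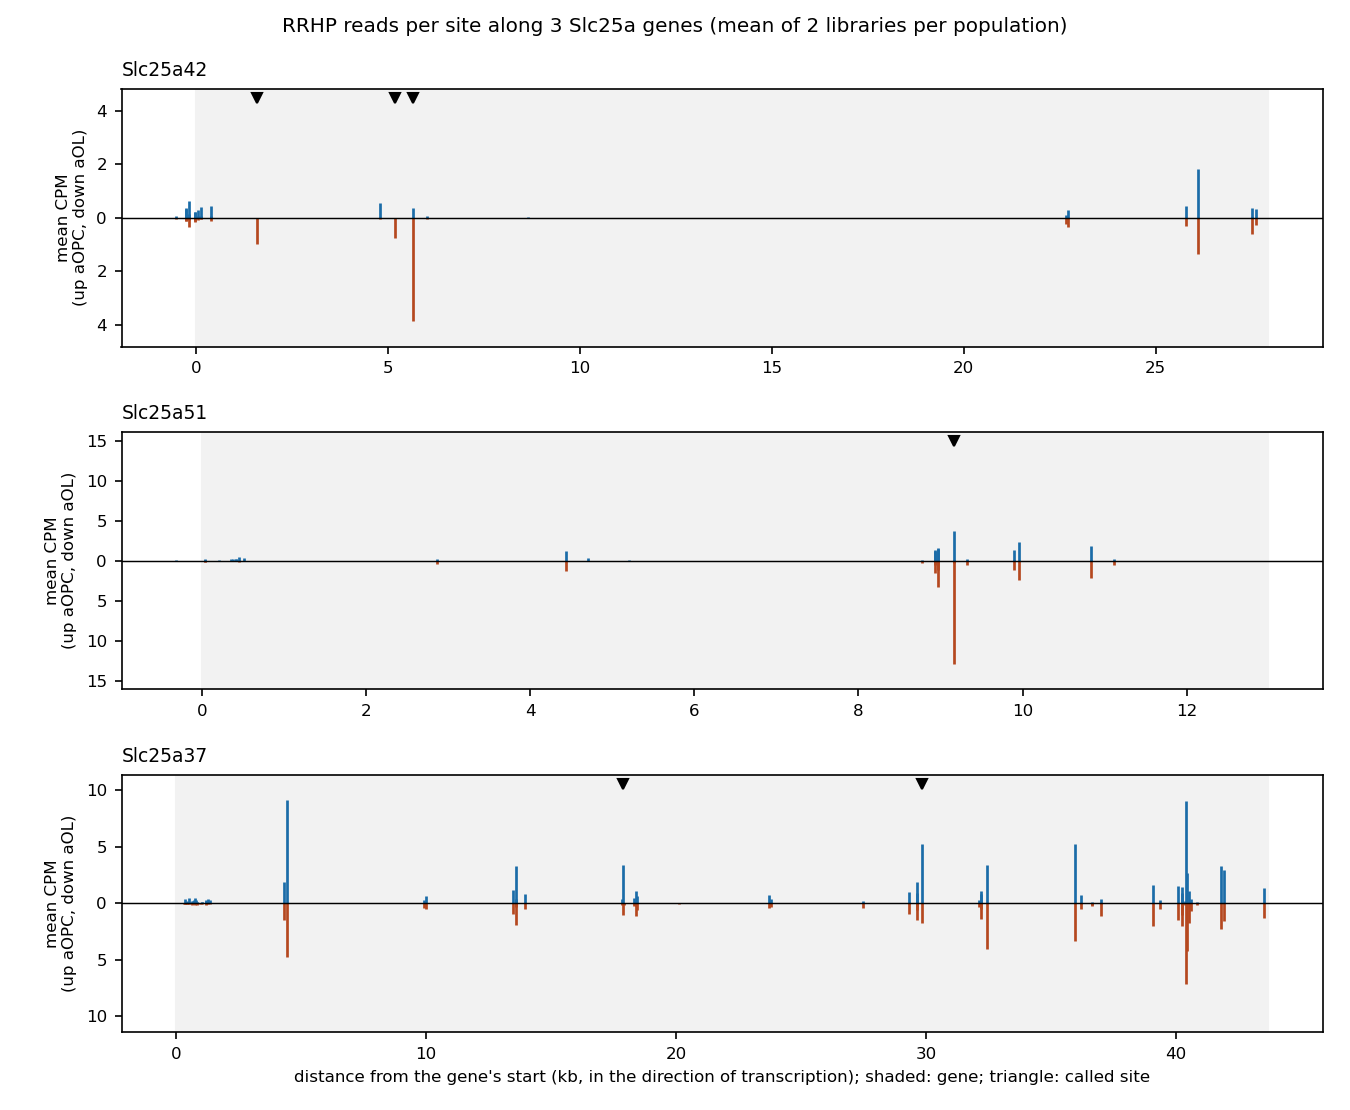
Mean RRHP level (CPM) at each CpG strand along Slc25a42, Slc25a51 and Slc25a37 (vertical axis, aOPC upwards in blue and aOL downwards in red, means of 2 libraries), against the distance from the gene's start in kb. Triangles mark the called sites, of which 1 in Slc25a42 and that in Slc25a51 carry the largest aOL bar of the gene, whereas the 2 in Slc25a37 have taller aOPC bars.

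Gene bodies were tested as sums over exon and intron sites. None of the 46 members passed the test with edgeR or with DESeq2, while 0.849% of 18488 gene bodies did, and the smallest adjusted p was 0.132, that of Slc25a51. At an unadjusted p under 0.05, 5 members differed, or 10.9% against 7.3% of all gene bodies. By sign 26 members were above and 20 below 0, with a median log2 fold change of 0.07 against -0.0027 over all.

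The 5 gene bodies were those of Slc25a51, Slc25a15, Slc25a17, Slc25a37 and Slc25a42. Slc25a51 had 16.4 and 20.4 CPM in aOPC, against 27.5 and 32.1 in aOL (log2 fold change 0.67 ± 0.16, adjusted p = 0.132). Slc25a42 had 5.76 and 5.61 CPM in aOPC, against 9.61 and 8.72 in aOL (log2 fold change 0.68 ± 0.23, adjusted p = 0.44), which turned to -0.50 with only sites read 3 times or more in every library. Slc25a17 had 12.9 and 13.6 CPM in aOPC, against 19.03 and 19.07 in aOL (log2 fold change 0.51 ± 0.16, adjusted p = 0.327). Slc25a37 had 74.6 and 80.6 CPM in aOPC, against 60.4 and 60.1 in aOL (log2 fold change -0.38 ± 0.12, adjusted p = 0.383). Slc25a15, the ornithine carrier of the urea cycle and the only one of the 5 with no called site, had 56.4 and 45.7 CPM in aOPC, against 39.4 and 33.9 in aOL (log2 fold change -0.48 ± 0.14, adjusted p = 0.297).

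Without their called sites the gene bodies looked different. The mean CPM ratio of Slc25a42 (log2, aOL over aOPC) was 0.69 with all 20 sites and -0.58 without the 3 called ones. That of Slc25a51 went from 0.69 to 0.19, that of Slc25a17 from 0.52 to 0.30, and that of Slc25a38 from -0.24 to 0.05. In Slc25a37 it went from -0.37 to -0.26. These ratios are descriptions with no test, because the sites left out were chosen by their values. Leaving out aOPC replicate 2 gave 4 called gene bodies among the members, or 8.7% against 3.27% of all gene bodies, and leaving out aOPC replicate 3 gave 13, or 28.3% against 22.6%. Without aOL replicate 2 or 3, 0 were called, against 0.463% and 0.443%.

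Promoters were tested for 41 members as sums over the sites that the deposited tables assign to a gene's promoter. The study's methods place this region from 2 kb before to 500 bp after the start, whereas the assigned sites of 44 members began at -939 bp from the RefSeq start of the gene, and 137 of 625, with 24.2% of the reads, lay more than 500 bp after it. None passed the test with edgeR or with DESeq2, while 0.768% of 14579 promoters did, and 4 members had an unadjusted p under 0.05, or 9.76% against 5.97%. The smallest adjusted p was 0.232. By sign 17 were above and 24 below 0, with a median of -0.08 against -0.01 over all. Promoter reads were few, and the promoters of Slc25a20, Slc25a31, Slc25a48 and Slc25a34 had the highest means in aOPC, at 36.7, 14.4, 11.7 and 11.0 CPM. In the Slc25a20 promoter 43.3% of the reads fell on 1 site. When aOPC replicate 3 was left out, 6 of 42 member promoters were called, or 14.3% against 11% of all promoters.

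Slc25a37 had the largest difference downwards, with 51 and 46 reads in aOPC, against 17 and 43 in aOL, or 7.17 and 2.69 CPM against 1.07 and 1.59 (log2 fold change -1.23 ± 0.39, unadjusted p = 0.0039, adjusted p = 0.232). Its 27 listed promoter sites lie from 308 to 1344 bp after the RefSeq start, with 17.8% of their reads within 500 bp of it. Of these sites 26 lie in a CpG island, and the higher island share of aOPC replicate 2 given above moved with this difference. Its part in it was not tested. The 4 X-linked members had the 4 largest differences upwards. Slc25a14, an uncoupling-protein-like carrier, had 14 and 19 reads in aOPC, against 25 and 90 in aOL (log2 fold change 1.20 ± 0.43, adjusted p = 0.401). Slc25a5 (Ant2) had 54 and 77 reads in aOPC, against 116 and 275 in aOL (log2 fold change 1.05 ± 0.47, adjusted p = 0.737). Slc25a43 had 32 and 33 reads in aOPC, against 52 and 117 in aOL (log2 fold change 0.85 ± 0.37, adjusted p = 0.705), and Slc25a53 had 32 and 19 in aOPC, against 27 and 106 in aOL (log2 fold change 0.75 ± 0.42, adjusted p = 0.978). In CPM the libraries of the 2 populations overlapped for all 4 genes.

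X-linked promoters as a whole lay higher in aOL. Over 502 tested X-linked promoters the median log2 fold change was 0.84 and 96.8% were above 0, against -0.03 and 47.0% over 14073 autosomal promoters. The share of promoter reads on the X chromosome came to 2.03% and 1.80% for aOPC and 2.73% and 3.38% for aOL, replicates 2 and 3 in that order. Over all sites the X share overlapped between the populations, at 2.84% and 2.45% for aOPC and 2.70% and 3.13% for aOL. Reads on the Y chromosome came to 5548 and 4791 CPM in aOPC, against 3984 and 4647 in aOL. The RNA of Ddx3y, a Y-linked gene, was at 12.43 in aOPC replicate 2 and at 0.318 to 1.63 in the other libraries. The part of the sex of the animals in the X-linked differences was not tested. With library totals in place of TMM scaling, the median over all promoters moved to -0.60, and Slc25a14, Slc25a5, Slc25a43 and Slc25a53 were at 0.71, 0.56, 0.27 and 0.06, still above 0.

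Of the 36 members with an entry in the RefSeq promoter table, 31 hold at least 1 CCGG in the 250 bases before to 50 after the start (GRCm38.p6), or 86.1%, with a median of 2, against 52.6% of 27025 promoters and a median of 1. The motif is its own reverse complement, so that both strands hold it at once. A match describes the sequence that the assay can read and nothing else.

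**Figure D5:**
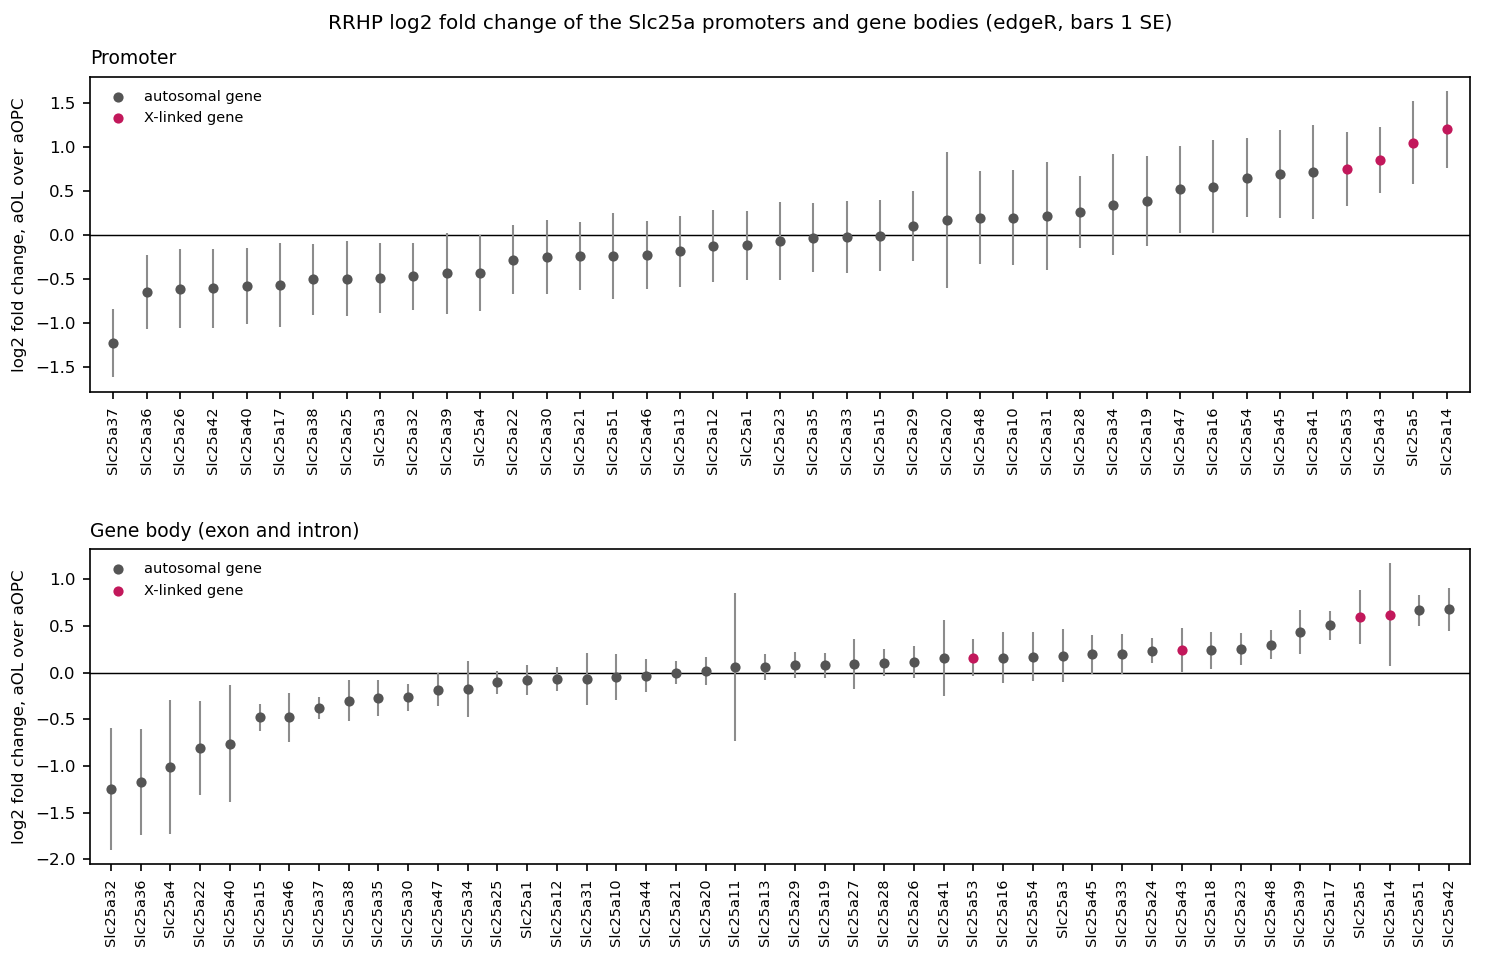
RRHP log2 fold change (aOL over aOPC, edgeR, vertical axis, bars 1 SE) of 41 Slc25a promoters and 46 Slc25a gene bodies, ordered by value, with X-linked genes in pink. The 4 X-linked promoters hold the highest places, from 0.75 to 1.20, and Slc25a37 the lowest.

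RNA and 5hmC of the same carriers were set side by side, as both came from the same pellets. Over the 38 members with both, the RNA difference and the gene body log2 fold change had the same sign in 16 genes, with a Spearman correlation of -0.135 and a Pearson correlation of -0.13, given as a description across genes that share these libraries. Slc25a42 was higher in aOL in both, by 1.15 in RNA and 0.68 in gene body reads, with neither called. The first was 0.45 without aOPC replicate 3, and the second was -0.50 from sites read 3 times or more in every library. Slc25a37 had 0.71 in RNA and -0.38 in gene body reads, Slc25a17 had -0.42 and 0.51, and Slc25a51 had 0.02 and 0.67. Slc25a4, the most abundant member, had 21 and 16 gene body reads in aOPC, against 10 and 31 in aOL, and its 5hmC difference was not detectable at this depth.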

How the data were processed

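RNA levels and 5hmC were measured in aOPC and aOL, with 2 libraries per population and assay. A first replicate of each was not analysed here. The authors deposited RNA as log2 values, made from reads aligned with BWA to mm10 and counted per gene, and the 4 libraries have nearly equal quantiles. The submitters' processing notes also name DESeq2 1.2.5, and whether counting used strand is not given in the sources used here. The RRHP values are raw counts of reads per CpG site and strand as deposited by the authors on mm10, and the aligner is not given in the sources used here. RRHP reads carry no molecular identifiers, so that floors of 3 counts cover counting error only.

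RNA was fitted with limma 3.58.1 over genes that reached 5 (log2) in 2 or more libraries (R 4.3.3). Sites read 10 times or more in 2 or more libraries, and sums over gene bodies and promoters after filterByExpr, were tested with edgeR 4.0.16 (quasi-likelihood test, TMM on library totals). All p-values were adjusted over all features tested. DESeq2 1.42.0 was an alternative. The limma fit and the edgeR fits of gene bodies and of a random draw of sites were tested on simulated data with planted changes. The promoter fit and DESeq2 were not. Gene positions and CCGG were read from GRCm38 and its RefSeq annotation, and all 1587 member sites lay at a CCGG. Exon lengths and exon overlaps were read from the GENCODE mouse annotation. RNA levels of genes that share exons with others are uncertain.

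Genes given in full were the 6 with the smallest RNA p in each direction, the 5 with the highest length-adjusted level, those with a called site, the 3 with the most tested sites, and Slc25a1, Slc25a3, Slc25a4, Slc25a5, Slc25a12 and Slc25a13. Genes and values outside this rule were chosen after their values were seen. The members, the role groups, the list of other transport genes and the marker lists were chosen with earlier results of these data known. Some genes of these lists are not reported here by name. The deviations of same-numbered libraries from their group means had a correlation of -0.0739 in RNA and -0.0572 in RRHP, and the populations came from different mouse lines, so that numbers were not taken as pairs. The alternatives were other filters, scalings and tests, a block for the replicate number, and leaving out each library.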

Additional observations from a re-analysis of the deposited data

How the results depend on the processing

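With 2 libraries per group, and 1 left in an arm when a library is left out, counts of calls moved with single libraries. Leaving out each library in turn gave 0 to 15 called members in RNA, 0 to 11 higher and 0 to 16 lower at an unadjusted p under 0.05, 0 to 21 sites called higher and 1 to 17 lower, 0 to 13 gene bodies and 0 to 6 promoters. Over all features in the same fits the shares called ran from 0.896% to 36.3% in RNA, from 1.16% to 6.74% of sites, from 0.443% to 22.6% of gene bodies and from 0.434% to 11% of promoters. A site that needs both libraries of 1 population to pass the filter cannot be tested without either. Few member sites in islands and promoters, 3.73% and 7.66%, had the reads to be tested, so that smaller differences there were not detectable at this depth.

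The number of sites called higher in aOL was 7 as reported, 1 from sites read 10 times or more in every library and 4 with DESeq2. The members lower in RNA at an unadjusted p under 0.05 were 2 with a trended and robust variance and 0 with a replicate block. The replicate block gave 1 called gene body, that of Slc25a51, and the other counts stayed within 1.5 times. Over all sites, calls in aOL were 5382 higher and 4772 lower as reported, 229 and 261 from sites read 10 times or more in every library, 3184 and 1952 from sites read 20 times or more in 2 or more libraries, and 2328 and 4262 with DESeq2. Over all gene bodies they were 30 and 127, 7 and 3 from sites read 3 times or more in every library, and 46 and 163 with the replicate block. Over all promoters they were 61 and 51, 140 and 79 with no filter, 33 and 5 from sites read 3 times or more in every library, 31 and 68 with library totals, 34 and 33 with DESeq2, and 38 and 43 with the replicate block.

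The signs of some differences turned. With only sites read 3 times or more in every library, the gene body of Slc25a42, at 0.68 as reported, was at -0.50, that of Slc25a18 at -0.023 and that of Slc25a38 at 0.066. The gene body of Slc25a11 was at -0.043 with DESeq2. That of Slc25a21 was -0.0014 as reported, 0.0007 with no filter, 0.0011 with RLE size factors, 0.0081 with library totals, 0.0007 with DESeq2 and 0.0009 with the replicate block. Leaving out each library in turn, the RNA difference of Slc25a13 ran from -0.55 to 0.078, of Slc25a18 from -0.12 to 0.26, of Slc25a37 from -0.0601 to 1.47 and of Slc25a51 from -0.25 to 0.30. The gene body fold change ran from -0.19 to 0.073 in Slc25a1, from -0.17 to 0.82 in Slc25a3, from -0.78 to 1.304 in Slc25a11, from -0.15 to 0.028 in Slc25a12, from -0.084 to 0.24 in Slc25a13, from -0.066 to 0.15 in Slc25a20, from -0.062 to 0.0745 in Slc25a21, from -0.028 to 0.29 in Slc25a28, from -0.60 to 0.19 in Slc25a38 and from -0.22 to 0.26 in Slc25a44. The promoters of the 4 X-linked members and of Slc25a37 kept their direction under every alternative run, a check chosen after seeing the data. The cause of these turns was not tested.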
